A study of Homo sapiens with 12 samples.

Results

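The genes described here are 9 transcriptional targets of p53 other than CDKN1A, the gene of p21: BAX, BBC3, FAS, FBXO22, GADD45A, GDF15, MDM2, TIGAR and ZMAT3. They were taken as a list of names, and each probe with 1 of these symbols in the platform annotation was kept, which gave 13 probes of 16381 on the arrays and 9 of 7452 named genes. BAX had 3 probes, FBXO22 and GADD45A had 2 each and the others had 1. The arrays were Illumina HumanHT-12 v4 BeadChips of HCT116 cells, a human colorectal carcinoma line with functional p53, collected 24 h after transfection. The cells received siLRH-1 #1 (4 arrays) or siLRH-1 #2 (4 arrays), which are different siRNAs against LRH-1, the nuclear receptor encoded by NR5A2, or the non-targeting siLUC against luciferase (4 arrays), each at 5 nM. All groups shared the line, the medium and the RNAiMax reagent, and the study describes the 4 RNA samples of a group as independent. The question was whether other p53 targets changed along with p21 after LRH-1 silencing.

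p53 is a transcription factor that is held at low levels by the ubiquitin ligase MDM2, itself the product of a p53 target gene, and that accumulates when cells are stressed or their DNA is damaged. It then binds response elements made of paired half-sites and raises genes of cell cycle arrest, apoptosis, DNA repair and metabolism, CDKN1A being among the best known. Colorectal carcinoma cells with intact p53, HCT116 among them, are a common model of this response. The NR5A2 transcript was not analysed here, and the knockdown itself cannot be read from the values used.

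The arrays had median log2 intensities of 6.49 to 6.50, and the lowest correlation between arrays of a group was 0.996. On the second principal component, siLRH-1 #2 replicate 1 lay at −13.3 and the other siLRH-1 #2 arrays at −6.64 to −5.16, and siLUC replicate 2 lay at 12.7 and the other siLUC arrays at 6.48 to 6.98. On the same component siLRH-1 #1 replicate 3 lay at 4.99 and the other siLRH-1 #1 arrays at −3.28 to −1.13, and on the first at 17.5 and the others at 11.8 to 12.6. These 3 arrays stand apart from their groups, and results that rest on them are also given without them. Epithelial markers were present, with 8 of 9 measured, mean log2 intensities of 6.29 to 12.5 and KRT19 highest. Of fibroblast and leukocyte markers, 3 of 9 and 4 of 9 were measured, at 5.97 to 6.33 and 6.08 to 7.95, and of 5 endothelial markers 0 were. Of the epithelial markers, 5 passed the test with siLRH-1 #1, EPCAM and CDH1 higher (log2 change 0.22 and 0.31) and KRT8, KRT18 and ELF3 lower (−0.23, −0.25 and −0.38), where 23.5% of all named genes passed, and 0 passed with siLRH-1 #2, where 8.39% did. Their summed linear intensity was 13939 to 14817 on siLRH-1 #1 arrays, 14621 to 15128 on siLRH-1 #2 arrays and 14456 to 15101 on siLUC arrays. Among leukocyte markers 1 passed with siLRH-1 #1, the sums being 423 to 440, 439 to 464 and 458 to 495 on siLRH-1 #1, siLRH-1 #2 and siLUC arrays. The part of such shifts in the results was not tested.

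RefSeq promoter windows, from 250 bases before to 50 after a start site on GRCh38.p14, were found for 7 of the 9 genes, 13 windows in all, and 1 for CDKN1A. FBXO22 and GADD45A were not matched. Both strands were searched for the p53 half-site, for CAAGGNCA (the kind of site LRH-1 binds), for GGGCGG (bound by Sp factors) and for TATAAA. The p53 half-site was in 1 of the 13 windows, 1 of 3 windows of FAS, at −122 to −113, and in 6.63% of all 35116 windows. CAAGGNCA was in 0 of the 13 and in 5.28% of all windows, GGGCGG in 11 and 45.0%, and TATAAA in 1 (GDF15, at −29 to −24) and 11.5%. The CDKN1A window held 4 matches to GGGCGG, of which a pair share a base, and 0 to the p53 half-site or CAAGGNCA. Some windows of MDM2 and of FAS overlap each other, so that a match can be counted in more than 1 window. A match is a string of letters and not a measured site. Sequence outside the windows was not searched, so that a count of 0 does not mean that a gene lacks such sites. The potential LRH-1 sites that the study names in the p21 promoter lie farther upstream than the CDKN1A window. The 250 bases before the start site are shown for FAS, which held the half-site match, for GDF15, TIGAR and ZMAT3, which are the genes with a window that were called in a comparison, and for CDKN1A, the gene they are set against. Capitals mark matches on either strand, so that GGGCGG on the other strand reads CCGCCC.
FAS (chr10:88991181-88991430, + strand): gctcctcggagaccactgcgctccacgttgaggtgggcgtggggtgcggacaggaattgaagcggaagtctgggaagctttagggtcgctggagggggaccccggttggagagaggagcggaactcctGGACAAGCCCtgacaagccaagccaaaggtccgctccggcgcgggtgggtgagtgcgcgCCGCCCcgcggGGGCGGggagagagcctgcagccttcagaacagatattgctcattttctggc
GDF15 (chr19:18385908-18386157, + strand): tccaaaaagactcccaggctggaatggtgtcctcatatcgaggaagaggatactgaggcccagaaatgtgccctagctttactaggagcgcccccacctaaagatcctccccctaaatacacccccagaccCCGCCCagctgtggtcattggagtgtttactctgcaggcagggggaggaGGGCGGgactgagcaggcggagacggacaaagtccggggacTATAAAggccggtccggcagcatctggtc
TIGAR (chr12:4320963-4321212, + strand): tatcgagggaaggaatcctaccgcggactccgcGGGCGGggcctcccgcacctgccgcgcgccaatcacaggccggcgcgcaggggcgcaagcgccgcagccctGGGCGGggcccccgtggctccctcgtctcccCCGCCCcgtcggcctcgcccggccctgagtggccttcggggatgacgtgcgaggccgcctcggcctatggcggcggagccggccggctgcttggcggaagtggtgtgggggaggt
ZMAT3 (chr3:179071810-179072059, − strand): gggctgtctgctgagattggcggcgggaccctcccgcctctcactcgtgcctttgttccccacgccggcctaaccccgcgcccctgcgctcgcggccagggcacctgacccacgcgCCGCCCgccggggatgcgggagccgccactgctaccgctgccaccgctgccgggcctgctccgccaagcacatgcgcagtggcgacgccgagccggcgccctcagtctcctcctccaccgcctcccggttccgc
CDKN1A (chr6:36678464-36678713, + strand): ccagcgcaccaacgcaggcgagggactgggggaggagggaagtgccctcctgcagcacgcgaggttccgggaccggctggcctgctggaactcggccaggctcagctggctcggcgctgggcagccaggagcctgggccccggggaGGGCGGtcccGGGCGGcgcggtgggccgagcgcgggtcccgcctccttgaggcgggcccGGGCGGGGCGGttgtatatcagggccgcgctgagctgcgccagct

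Of the 9 genes, 0 passed the test in the same direction with both siRNAs, where 3.24% of all probes did. CDKN1A, whose rise on these arrays the study had already reported, rose with each. With siLRH-1 #1, FBXO22, TIGAR and ZMAT3 rose, by 1.16- to 1.28-fold on their called probes, GDF15 fell to 0.876 of its siLUC level, and BAX, BBC3, FAS, GADD45A and MDM2 did not pass. With siLRH-1 #2, 1 probe of GADD45A rose, by 1.22-fold, and the other 8 genes did not pass. Values are log2 intensities, and a probe was called where its adjusted p from limma, corrected over all 16381 probes, was under 0.05. In probes, siLRH-1 #1 called 5 of 13, 4 higher and 1 lower, where 17.2% of all probes were called, 8.05% higher and 9.12% lower. siLRH-1 #2 called 1 of 13, higher, where 5.71% of all probes were called, 2.86% higher and 2.85% lower. At an unadjusted p under 0.05 the counts were 6 of 13 with siLRH-1 #1 and 3 of 13 with siLRH-1 #2, where the shares of all probes were 28.1% and 17.6%. A call in the same direction with both siRNAs was made for 0 of 13 probes, and for 3.24% of all probes, so that 0 is near the share of all probes. Both comparisons use the same siLUC arrays, and the p-values measure the spread between the 4 samples of a group.

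CDKN1A, an inhibitor of cyclin-dependent kinases, is the gene the others are set against. Its bright probe had log2 intensities of 12.23, 12.24, 12.10 and 12.26 with siLRH-1 #1, 12.32, 12.21, 12.24 and 12.21 with siLRH-1 #2, against 11.94, 11.65, 11.77 and 11.82 with siLUC. Each knockdown array was above each siLUC array. The rise was 1.33-fold with siLRH-1 #1 (95% interval 1.21 to 1.47, adjusted p = 6.19e-05) and 1.37-fold with siLRH-1 #2 (1.25 to 1.50, adjusted p = 0.000134), and the change exceeded in size that of 96.7% and 99.2% of probes. In log2 this was 0.42 and 0.45. Without all 3 arrays that stand apart, the log2 changes of CDKN1A were 0.40 and 0.38, and both passed (adjusted p = 0.000528 and 0.00533). Its second probe, at a mean of 6.18, had values of 6.07 to 6.27, 6.13 to 6.32 and 6.08 to 6.21 in the 3 groups, which overlapped, and did not pass (adjusted p = 0.914 and 0.473).

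**Figure D1:**
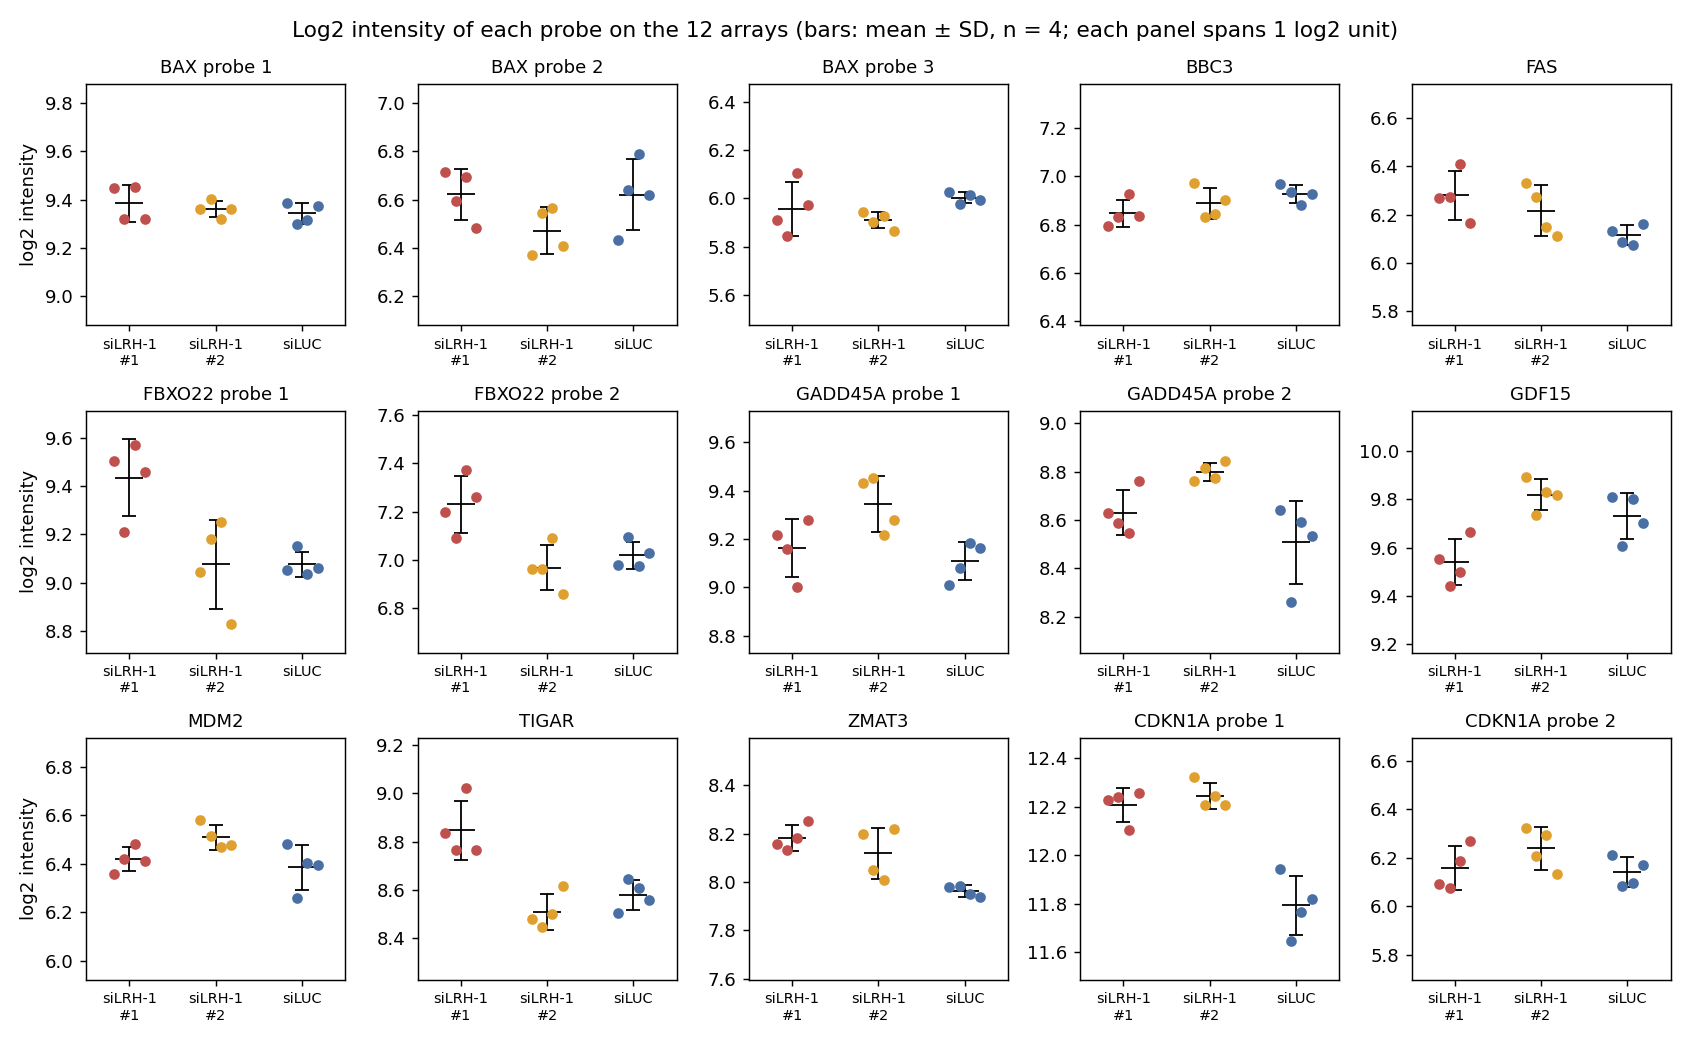
Log2 intensity (vertical axis, each panel spanning 1 log2 unit) of the 13 probes of the 9 p53 target genes and of the 2 CDKN1A probes on each array (points) of siLRH-1 #1, siLRH-1 #2 and siLUC, with the mean and SD of 4 arrays. The TIGAR arrays of siLRH-1 #1 lie at 8.77 to 9.02, above all others, while the bright CDKN1A probe is higher with both siRNAs.

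The feedback genes differed from each other. MDM2, the ligase that marks p53 for degradation and is commonly used to read p53 activity, had log2 intensities of 6.36, 6.42, 6.48 and 6.41 with siLRH-1 #1, 6.58, 6.52, 6.47 and 6.48 with siLRH-1 #2, against 6.48, 6.26, 6.40 and 6.39 with siLUC. All 3 groups overlapped, and siLUC replicate 2, an array that stands apart, was the lowest of the 12. The fold was 1.02 with siLRH-1 #1 (95% interval 0.937 to 1.12, adjusted p = 0.795) and 1.09 with siLRH-1 #2 (0.999 to 1.19, adjusted p = 0.290), so that neither comparison passed and both intervals lie below the 1.33-fold and 1.37-fold of CDKN1A. Without all 3 arrays that stand apart, the log2 changes of MDM2 were −0.030 and 0.060 (adjusted p = 0.855 and 0.943). With all arrays they were 0.033 and 0.13. The MDM2 probe had a mean of 6.44, which exceeded that of 48.7% of probes. The second CDKN1A probe, at a mean of 6.18, had folds of only 1.01 with siLRH-1 #1 and 1.07 with siLRH-1 #2. Whether a probe as dim as that of MDM2 could show a rise like that of the bright CDKN1A probe was not tested.

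FBXO22, an F-box protein that works in a ubiquitin ligase and is linked to p53 through removal of the methylated protein, had on its brighter probe 9.50, 9.21, 9.57 and 9.46 with siLRH-1 #1, 9.05, 9.18, 9.25 and 8.83 with siLRH-1 #2, against 9.05, 9.15, 9.04 and 9.06 with siLUC. Every siLRH-1 #1 array was above every siLUC array, and the siLRH-1 #2 arrays spread around the siLUC arrays, with replicates 2 and 3 above all siLUC arrays and replicate 4 below them. FBXO22 averaged 9.44 ± 0.16 with siLRH-1 #1, 9.08 ± 0.19 with siLRH-1 #2 and 9.08 ± 0.052 with siLUC (SD, n = 4 each). The rise with siLRH-1 #1 was 1.28-fold (95% interval 1.14 to 1.44, adjusted p = 0.00300), larger in log2 size than that of 95.1% of probes, and with siLRH-1 #2 the fold was 1.00 (0.888 to 1.13, adjusted p above 0.99). Without siLRH-1 #1 replicate 3, the highest of the group, the log2 change with siLRH-1 #1 was 0.31 (adjusted p = 0.0164), and without all 3 arrays that stand apart it was 0.34 (adjusted p = 0.0253).

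The dimmer FBXO22 probe, annotated to another transcript, had 7.20, 7.09, 7.37 and 7.26 with siLRH-1 #1, 6.96, 6.96, 7.09 and 6.86 with siLRH-1 #2, against 6.98, 7.09, 6.97 and 7.03 with siLUC. It was higher with siLRH-1 #1 by 1.16-fold (1.05 to 1.28, adjusted p = 0.0301), although replicate 2 of the 2 groups had nearly the same value. With siLRH-1 #2 the fold was 0.965 (0.877 to 1.06, adjusted p = 0.777). The call with siLRH-1 #1 was lost when siLUC replicate 1, 3 or 4 was left out (adjusted p = 0.0767, 0.0797 and 0.0538), or replicate 3 or 4 of siLRH-1 #1 (0.129 and 0.0721).

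GADD45A, a stress protein that takes part in growth arrest and DNA repair, was the only one of the 9 genes with a call for siLRH-1 #2. Its brighter probe had log2 intensities of 9.22, 9.16, 9.001 and 9.28 with siLRH-1 #1, 9.43, 9.45, 9.22 and 9.28 with siLRH-1 #2, against 9.01, 9.08, 9.18 and 9.16 with siLUC. Each siLRH-1 #2 array was above each siLUC array, and siLRH-1 #1 overlapped with siLUC. The fold of this probe was 1.18 with siLRH-1 #2 (95% interval 1.06 to 1.30), with an adjusted p of 0.0503 that just missed the threshold, and 1.04 with siLRH-1 #1 (0.938 to 1.15, adjusted p = 0.691).

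The dimmer GADD45A probe, of the same annotated transcript, had 8.63, 8.59, 8.54 and 8.76 with siLRH-1 #1, 8.76, 8.82, 8.77 and 8.84 with siLRH-1 #2, against 8.64, 8.26, 8.59 and 8.53 with siLUC. The siLRH-1 #2 arrays were tight (8.80 ± 0.038, SD, n = 4) and lay above both other groups, and the siLUC arrays spread widely with replicate 2 the lowest (8.51 ± 0.17, SD, n = 4). The rise with siLRH-1 #2 was 1.22-fold (1.10 to 1.36, adjusted p = 0.0165), and with siLRH-1 #1 the fold was 1.09 (0.981 to 1.21, adjusted p = 0.296). Without siLUC replicate 2 the log2 change with siLRH-1 #2 was 0.21 and the call was lost (adjusted p = 0.104), as it was without all 3 arrays that stand apart (0.22, adjusted p = 0.179).

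**Figure D2:**
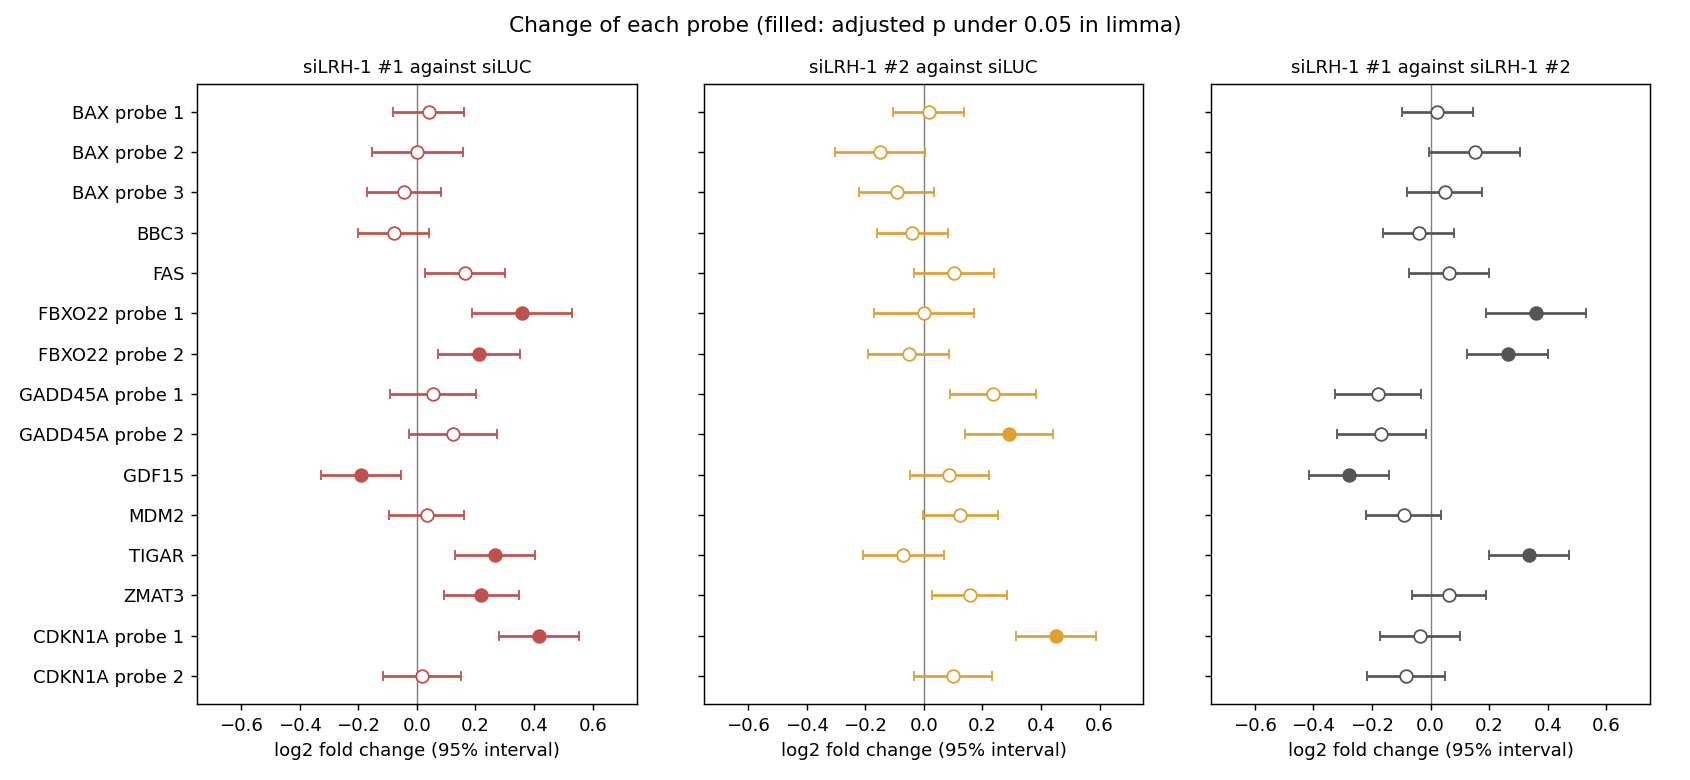
Log2 fold change with its 95% interval (horizontal axis) of each probe of the 9 genes and of CDKN1A, for siLRH-1 #1 against siLUC, siLRH-1 #2 against siLUC and siLRH-1 #1 against siLRH-1 #2. Filled points passed an adjusted p of 0.05: 5 of 13 in the first panel, 1 of 13 in the second and 4 of 13 in the third, besides the bright CDKN1A probe in the first and second.

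The apoptosis genes gave 0 calls on 5 probes with either siRNA, where 17.2% of all probes were called with siLRH-1 #1 and 5.71% with siLRH-1 #2. On so few probes a count of 0 is near these shares. BAX, which permeabilises the mitochondrial outer membrane, had on its brightest probe 9.45, 9.32, 9.45 and 9.32 with siLRH-1 #1, 9.36, 9.40, 9.32 and 9.36 with siLRH-1 #2, against 9.39, 9.30, 9.32 and 9.38 with siLUC. The groups overlapped, with 2 siLRH-1 #1 arrays above all the others. Its fold was 1.03 with siLRH-1 #1 (95% interval 0.946 to 1.12) and 1.01 with siLRH-1 #2 (0.930 to 1.10). The second probe, of another annotated transcript, ranged over 6.48 to 6.72, 6.37 to 6.56 and 6.43 to 6.79 in the 3 groups, and its fold was 1.00 with siLRH-1 #1 (0.900 to 1.11) and 0.902 with siLRH-1 #2 (0.811 to 1.00). The third probe, among the dimmest 9.07% by mean, ranged over 5.84 to 6.11, 5.87 to 5.95 and 5.97 to 6.03, so that with siLRH-1 #2 each array was below each siLUC array, with a fold of 0.938 (0.859 to 1.02, adjusted p = 0.490).

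BBC3 encodes PUMA, an activator of the mitochondrial death pathway, and had 6.80, 6.83, 6.93 and 6.84 with siLRH-1 #1, 6.97, 6.83, 6.85 and 6.90 with siLRH-1 #2, against 6.97, 6.94, 6.88 and 6.93 with siLUC. The groups overlapped, and both means were below that of siLUC, at 0.947 of it with siLRH-1 #1 (0.870 to 1.03, adjusted p = 0.428) and 0.974 with siLRH-1 #2 (0.895 to 1.06, adjusted p = 0.812). FAS, a death receptor on the cell surface, had 6.27, 6.27, 6.41 and 6.17 with siLRH-1 #1, 6.33, 6.27, 6.15 and 6.11 with siLRH-1 #2, against 6.13, 6.09, 6.07 and 6.16 with siLUC. Every siLRH-1 #1 array was above every siLUC array, the closest pair being 6.17 and 6.16, and the siLRH-1 #2 arrays overlapped with siLUC. The fold of FAS was 1.12 with siLRH-1 #1 (1.02 to 1.23, adjusted p = 0.0916) and 1.07 with siLRH-1 #2 (0.977 to 1.18, adjusted p = 0.463), on a probe whose mean of 6.20 exceeded that of only 37.9% of probes.

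Among the genes of metabolism and RNA control, TIGAR and ZMAT3 rose with siLRH-1 #1. TIGAR, a phosphatase that lowers glycolytic flux, had log2 intensities of 8.84, 8.77, 9.02 and 8.77 with siLRH-1 #1, 8.48, 8.45, 8.50 and 8.62 with siLRH-1 #2, against 8.51, 8.65, 8.61 and 8.56 with siLUC. The siLRH-1 #1 arrays were above all the others, and siLRH-1 #2 overlapped with siLUC and had the lower mean. The rise with siLRH-1 #1 was 1.20-fold (95% interval 1.09 to 1.32, adjusted p = 0.00580), and with siLRH-1 #2 the fold was 0.953 (0.867 to 1.05, adjusted p = 0.667). Without siLRH-1 #1 replicate 3, the highest array, the log2 change with siLRH-1 #1 was 0.21 and passed (adjusted p = 0.0351), as did the change of 0.23 without all 3 arrays that stand apart (adjusted p = 0.0382).

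ZMAT3, a zinc finger protein that binds RNA, had 8.16, 8.13, 8.18 and 8.25 with siLRH-1 #1, 8.20, 8.05, 8.01 and 8.22 with siLRH-1 #2, against 7.98, 7.99, 7.95 and 7.94 with siLUC. The siLUC arrays were tight (7.96 ± 0.023, SD, n = 4), and each knockdown array of either siRNA was above each of them. Of the 9 genes it was the only one for which that held with both siRNAs. The share of all probes meeting this joint condition was not counted, so ZMAT3 cannot be called unusual by it. Taken singly, the shares of all probes lying wholly above siLUC were 9.5% (siLRH-1 #1) and 5.77% (siLRH-1 #2). ZMAT3 rose 1.16-fold with siLRH-1 #1 (1.07 to 1.27, adjusted p = 0.0141), and its fold with siLRH-1 #2 was 1.11 (1.02 to 1.22, adjusted p = 0.160), which did not pass. Left without replicate 4 of siLRH-1 #1, ZMAT3 no longer passed for that siRNA (adjusted p = 0.0512), and without all 3 arrays that stand apart it passed narrowly (log2 change 0.23, adjusted p = 0.0498).

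GDF15, a secreted growth factor of the TGF-β family that rises under many stresses, had 9.55, 9.44, 9.50 and 9.66 with siLRH-1 #1, 9.89, 9.73, 9.83 and 9.82 with siLRH-1 #2, against 9.81, 9.61, 9.80 and 9.70 with siLUC. With siLRH-1 #1, 3 of 4 arrays were below all siLUC arrays, and replicate 4 was above siLUC replicate 2. It was the brightest of the 9 genes by its mean of 9.70, above 88.1% of probes, and the 1 that fell. Its level with siLRH-1 #1 was 0.876 of that with siLUC (0.797 to 0.962, adjusted p = 0.0463), and with siLRH-1 #2 the fold was 1.06 (0.967 to 1.17, adjusted p = 0.551). The call was lost when siLUC replicate 1, 3 or 4, siLRH-1 #1 replicate 1, 2 or 3, or siLRH-1 #2 replicate 3 or 4 was left out, with log2 changes of −0.20 to −0.16 (adjusted p = 0.0527 to 0.142), and without all 3 arrays that stand apart (−0.22, adjusted p = 0.0606).

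In counts of arrays, 4 of 13 probes (of FBXO22, TIGAR, FAS and ZMAT3) had all siLRH-1 #1 arrays above all siLUC arrays and 0 had them below, where 9.5% and 9.87% of all probes did. With siLRH-1 #2, 3 probes (both of GADD45A and that of ZMAT3) lay above and 1 of BAX lay below, where the shares of all probes were 5.77% and 5.76%.

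The siRNAs differed from each other on 4 of 13 probes, 3 higher and 1 lower with siLRH-1 #1, where 12.6% of all probes did, 5.84% higher and 6.79% lower. Groups did not overlap on 2 probes that were higher and 2 that were lower with siLRH-1 #1, where the shares of all probes were 7.56% and 8.31%. TIGAR was higher with siLRH-1 #1 than with siLRH-1 #2 by 1.26-fold (95% interval 1.15 to 1.39, adjusted p = 0.00100), with each array of siLRH-1 #1 above each of siLRH-1 #2. FBXO22 was higher by 1.28-fold on its brighter probe (1.14 to 1.44, adjusted p = 0.00398), where siLRH-1 #1 replicate 2 lay below siLRH-1 #2 replicate 3, and by 1.20-fold on its dimmer probe (1.09 to 1.32, adjusted p = 0.00948), where the groups did not overlap. GDF15 was lower with siLRH-1 #1, at 0.824 of its level with siLRH-1 #2 (0.750 to 0.905, adjusted p = 0.00485), again without overlap. GADD45A was at 0.882 and 0.890 of its level with siLRH-1 #2 on its brighter and dimmer probe (0.797 to 0.976 and 0.802 to 0.989), which did not pass (adjusted p = 0.105 and 0.157). ZMAT3 had a fold of 1.04 between the siRNAs (0.956 to 1.14, adjusted p = 0.628), and CDKN1A had 0.975 on its bright probe (0.887 to 1.07, adjusted p = 0.821). Without siLRH-1 #1 replicate 3 the call between the siRNAs was lost on the dimmer FBXO22 probe (log2 difference 0.22, adjusted p = 0.0592), while the brighter probe (0.31, adjusted p = 0.0250) and TIGAR (0.28, adjusted p = 0.00819) passed. Without all 3 arrays that stand apart, TIGAR passed (0.27, adjusted p = 0.0331), and the calls of the brighter and dimmer FBXO22 probes and of GDF15 were lost (0.30, 0.21 and −0.24, adjusted p = 0.0918, 0.140 and 0.0755).

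The changes were also set directly against that of the bright CDKN1A probe, as the log2 ratio to it on each array, with each probe's own variance. With siLRH-1 #1, 10 of 13 probes had a log2 change, with its sign, lower than that of CDKN1A. The exceptions were both probes of FBXO22 and that of TIGAR. With siLRH-1 #2 all 13 did. Since the rise of CDKN1A was above the changes of most probes, this held for 90.4% and 97.8% of all probes too, and the result is not particular to the 9 genes. The second CDKN1A probe was itself lower than the bright one, by −0.40 with siLRH-1 #1 and −0.35 with siLRH-1 #2 (adjusted p = 0.000605 and 0.000992). FBXO22 differed from CDKN1A by −0.057 with siLRH-1 #1 on its brighter probe (95% interval −0.36 to 0.24, adjusted p = 0.684) and by −0.20 on its dimmer (−0.45 to 0.039, adjusted p = 0.0956), and TIGAR by −0.15 (−0.41 to 0.11, adjusted p = 0.239). ZMAT3 was lower than CDKN1A by −0.20 with siLRH-1 #1 (−0.37 to −0.026, adjusted p = 0.0326) and by −0.30 with siLRH-1 #2 (−0.47 to −0.13, adjusted p = 0.00434). The closest to CDKN1A with siLRH-1 #2 was the dimmer GADD45A probe, at −0.16 (−0.29 to −0.032, adjusted p = 0.0212). MDM2 differed from CDKN1A by −0.38 with siLRH-1 #1 (−0.50 to −0.27) and by −0.33 with siLRH-1 #2 (−0.44 to −0.21).

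**Figure D3:**
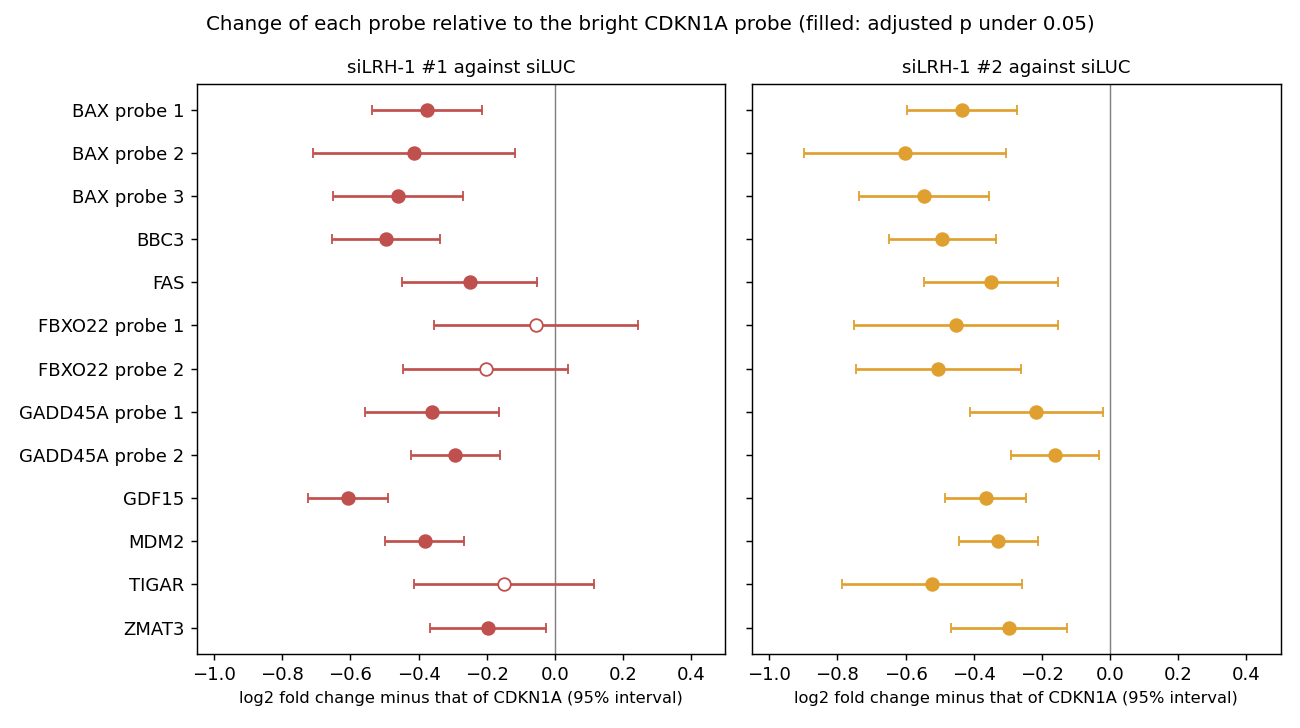
Log2 fold change of each probe of the 9 genes minus that of the bright CDKN1A probe, with its 95% interval (horizontal axis), for siLRH-1 #1 and siLRH-1 #2 against siLUC. Filled points passed an adjusted p of 0.05, 10 of 13 with siLRH-1 #1 and 13 of 13 with siLRH-1 #2, and the intervals of FBXO22 and TIGAR reach 0 with siLRH-1 #1.

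The 9 genes were read beside a list of 92 p53 targets, of which 41 were measured, each by its brightest probe. A listed gene counted as measured only where a probe with values carried its symbol, and 6467 of the 16381 probes carried none. The counts therefore leave out listed genes that the arrays may hold. TRIAP1 and SCO2, listed but not measured here, were reported by the study as lower with both siRNAs. Of the 41, 9 were higher and 2 lower with siLRH-1 #1 and 3 higher and 0 lower with siLRH-1 #2, which is 26.8% and 7.32% of them. Of all named genes 23.5% passed with siLRH-1 #1, 11.2% higher and 12.3% lower, and 8.39% with siLRH-1 #2, 4.41% higher and 3.97% lower. The median log2 change of the 41 was 0.041 (siLRH-1 #1) and 0.086 (siLRH-1 #2), against 0.0063 and 0.0028 over all named genes. For the 9 genes alone, 3 were higher and 1 lower with siLRH-1 #1 and 0 passed with siLRH-1 #2, with medians of 0.055 and 0.088. For the 31 measured genes other than the 9 and CDKN1A, 5 were higher and 1 lower with siLRH-1 #1 and 2 higher and 0 lower with siLRH-1 #2, with medians of 0.023 and 0.083.

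By role, the 7 measured apoptosis genes gave 0 calls with either siRNA, where 23.5% and 8.39% of all named genes passed with siLRH-1 #1 and siLRH-1 #2. Of 7 cell cycle genes 3 rose with siLRH-1 #1, where 11.2% of all named genes did. These were CDKN1A, E2F7, a repressor of E2F targets (log2 change 0.28, adjusted p = 0.00483), and FBXW7, a ubiquitin ligase subunit (0.18, adjusted p = 0.0392), and E2F7 and FBXW7 did not pass with siLRH-1 #2 (0.063 and 0.16). Beside FBXO22, SUSD6 was the feedback gene that rose with siLRH-1 #1 (0.35, adjusted p = 0.000939), at −0.028 with siLRH-1 #2. In DNA repair, FANCC, a Fanconi anaemia protein, rose with both siRNAs (0.20 and 0.26, adjusted p = 0.0365 and 0.0158). By brightest probes it was, besides CDKN1A, the only one of the 41 to do so. A dimmer probe of CYFIP2 also rose with both (0.32 and 0.30, adjusted p = 0.000338 and 0.00211). ASCC3, a helicase, rose with siLRH-1 #1 (0.18, adjusted p = 0.0351), while its change of 0.18 with siLRH-1 #2 did not pass (adjusted p = 0.0874). The dimmer probes of FBXW7 and of ASCC3 did not pass with siLRH-1 #1. ANKRA2, an ankyrin repeat protein, rose with siLRH-1 #2 (0.30, adjusted p = 0.0135), its change being 0.11 with siLRH-1 #1. DDIT4, a stress-induced inhibitor of mTORC1, moved most of the 41, lower with siLRH-1 #1 (−0.77, adjusted p = 2.06e-06) and at −0.12 with siLRH-1 #2. Between the siRNAs, SUSD6, E2F7 and CES2 were higher with siLRH-1 #1 (0.38, 0.22 and 0.23, adjusted p = 0.000623, 0.0355 and 0.0328), and DDIT4, DDB2 and HSPA4L were lower (−0.66, −0.35 and −0.22, adjusted p = 3.1e-05, 0.00426 and 0.0476).

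**Figure D4:**
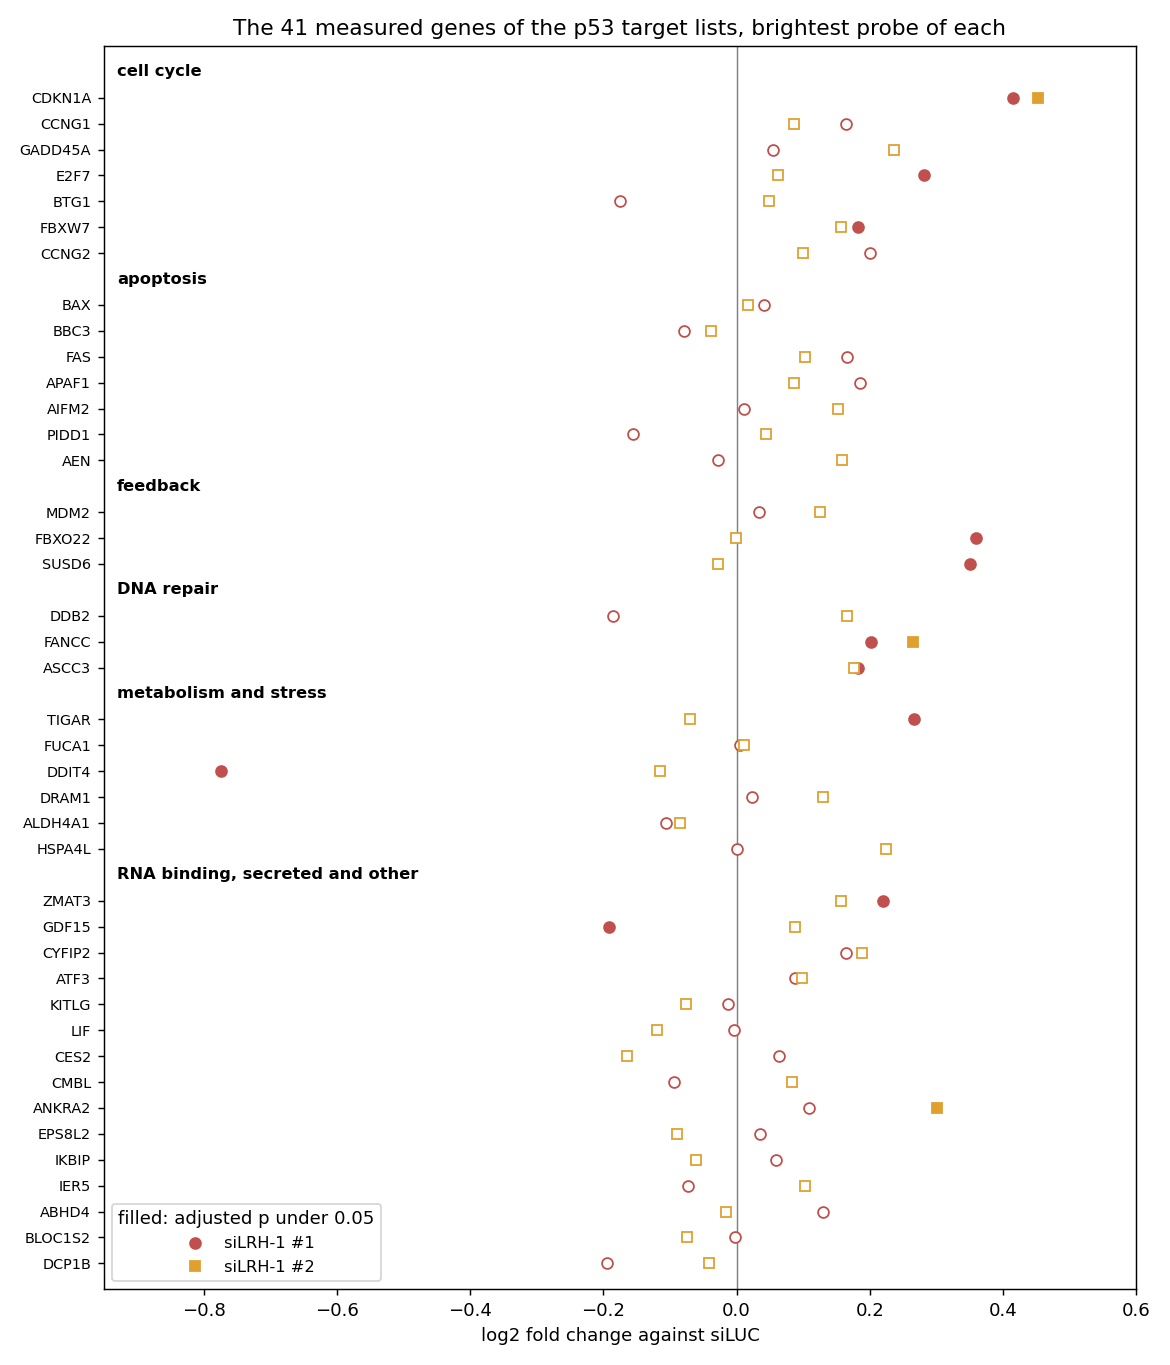
Log2 fold change against siLUC (horizontal axis) of the brightest probe of each of the 41 measured p53 targets, by role, with siLRH-1 #1 as circles, siLRH-1 #2 as squares and filled symbols for an adjusted p under 0.05. Filled circles number 11 and filled squares 3, and CDKN1A and FANCC are filled for both.

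Of 34 genes listed for the regulation of p53, 14 were measured, of which 4 passed with siLRH-1 #1 (28.6%, where 23.5% of all named genes did), 2 higher and 2 lower (EP300 0.30, ATM 0.23, CHEK2 −0.30 and KAT5 −0.26, adjusted p = 0.00114, 0.0191, 0.00230 and 0.00741). A second ATM probe, nearly as bright (mean log2 7.36 against 7.37), did not pass with siLRH-1 #1 (0.057, adjusted p = 0.658). By the mean of a gene's probes, 1 regulator was higher and 2 were lower with siLRH-1 #1 (21.4%, where 26.4% of all named genes passed). MDM4, the MDM2 relative that inhibits p53, had changes of 0.21 and 0.0052 (adjusted p = 0.0711 and 0.987). With siLRH-1 #2, 1 of the 14 was lower and 0 higher (7.14%, where 8.39% of all named genes passed). USP10, listed but not measured here, was reported by the study as lower with both siRNAs. Of 28 genes that p53 represses through p21 and the DREAM complex, 22 were measured. TOP2A and NUSAP1 were not, and the study reported each as higher with both siRNAs. Of the 22, 7 were higher and 3 lower with siLRH-1 #1 and 7 higher and 1 lower with siLRH-1 #2. That is 45.5% and 36.4% of them, where 23.5% and 8.39% of all named genes passed. Their median log2 changes were 0.11 and 0.16, against 0.0063 and 0.0028 over all named genes. The largest changes with siLRH-1 #1, given with those of siLRH-1 #2, were those of CCNB1 (0.53 and 0.29, adjusted p = 1.24e-06 and 0.00513), CDK1 (0.38 and 0.44, adjusted p = 0.00156 and 0.00148), CDC25A (−0.37 and −0.28, adjusted p = 7.47e-05 and 0.00504) and BIRC5 (−0.62, adjusted p = 1.38e-06, and 0.061 with siLRH-1 #2, which did not pass). With siLRH-1 #2 the changes of ECT2, LMNB1 and CCNB2 (0.38, 0.34 and 0.31, adjusted p = 0.00568, 0.00207 and 0.00192) came after that of CDK1.

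For each of the 9 genes with a call, taken by its brightest probe, the named genes with the most alike pattern were those with the smallest root mean square difference of log2 values over the 12 arrays, each probe taken minus its siLUC mean. For TIGAR they were KTI12 (0.048), AP3S2 (0.050) and DAZAP2 (0.058), for FBXO22 IKZF5 (0.077), ALG11 (0.079) and GAR1 (0.086), and for ZMAT3 APTX (0.048), MBD1 (0.051) and ABLIM1 (0.054). For GDF15 they were CNTNAP1 (0.050), HAUS4 (0.054) and NDUFA1 (0.055), and for the brighter probe of GADD45A, which just missed the threshold, ELAPOR1 (0.062), INTS6 (0.067) and LRRC37A4P (0.071). None of these was another of the 9 genes or CDKN1A.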

How the data were processed

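HCT116 RNA was hybridised to 12 single-colour arrays. According to the methods, the authors used GenomeStudio for pre-processing, dropped probes undetected on every array, and applied quantile normalization in Partek. The deposited log2 values were taken unchanged, and a shift of most transcripts in 1 direction would not be seen in them. A table of non-normalized signals was not used, since its 24 columns could not be tied to samples. The platform annotation gave 1 symbol to 9910 of the 16381 probes, more than 1 to 4 and no symbol to 6467.

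Probes were fitted one by one in limma 3.58.1 (R 4.3.3) with the 3 groups as coefficients, leaving 9 residual and 14.6 prior degrees of freedom. Calls were made at a Benjamini-Hochberg adjusted p under 0.05. The comparison with CDKN1A used log2 ratios on each array and each probe's own variance, and was added after values were seen. The script was tested on simulated data. Figures were made in Python 3.11.15 using matplotlib 3.10.9. The genes named are all probes of the 9 genes and CDKN1A, every listed p53 target called in a comparison, MDM4, up to 4 called members of the regulator and DREAM lists by size with siLRH-1 #1, and the 3 nearest patterns. ECT2, LMNB1, CCNB2 and the epithelial markers were named after their values were seen. The 9 genes and the lists were chosen with earlier results of these data known. Alternatives were 24 settings of the fit, the arrays left out 1 at a time among them. The number of arrays limits the precision.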

Additional observations from a re-analysis of the deposited data

Results flagged for a closer look

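The changes of 3 of the 9 genes differed between the siRNAs by a direct test in limma. By brightest probes 18.1% of all named genes differed too. The log2 change of FBXO22 with siLRH-1 #1 minus that with siLRH-1 #2 was 0.36 on its brighter probe and 0.26 on its dimmer probe (adjusted p = 0.00398 and 0.00948). For TIGAR the difference was 0.34 (adjusted p = 0.00100), and for GDF15 it was −0.28 (adjusted p = 0.00485). Of 45 groups of 4 arrays, 0 had an array whose gap to its neighbour passed Dixon's critical value.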

How the results depend on the processing

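The number of the 13 probes called with siLRH-1 #1, 5 in the report, was 3 with each probe's own variance and 2 at an adjusted p under 0.01, and 3 to 5 with 1 array left out. With siLRH-1 #2 the count of 1 was 0 with each probe's own variance and at 0.01. It was 2, with both GADD45A probes, with only the 8 arrays compared, array weights, a mean log2 of at least 7, an intensity trend, 16 added before log2 and arrays centred on their medians. It was 0 to 2 with 1 array left out, 0 without siLUC replicate 2, and 0 without both siLUC replicate 2 and siLRH-1 #2 replicate 1. Without these and siLRH-1 #1 replicate 3 the counts were 3, 0 and 1 for siLRH-1 #1, siLRH-1 #2 and the siRNAs against each other. Both settings were chosen after seeing the data. Between the siRNAs the count of 4 was 3 to 4 with 1 array left out. The probes with a log2 change lower than that of CDKN1A, 10 and 13 with siLRH-1 #1 and siLRH-1 #2, were 8 to 12 and 11 to 13 with 1 array left out. They were 5 and 8 at a mean log2 of at least 7, which tests fewer of the probes.

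Replicate numbers did not pair the samples: the deviations of same-numbered arrays from their group means correlated at −0.041 to 0.043. With the replicate number as a block, the counts called were 5, 1 and 4 for siLRH-1 #1, siLRH-1 #2 and the siRNAs against each other. The log2 change was then lower than that of CDKN1A for 9 and 12 probes with siLRH-1 #1 and siLRH-1 #2. Over all probes, the 936 called with siLRH-1 #2 were 367 with each probe's own variance, 466 at 0.01, 514 without siLUC replicate 2, 498 without siLRH-1 #2 replicate 1, 229 without both and 279 without all 3 arrays that stand apart. The 2813 called with siLRH-1 #1 were 1715 at 0.01. The 2068 called between the siRNAs were 1194 at 0.01, 1302 without siLRH-1 #1 replicate 3, 1299 without siLRH-1 #2 replicate 1, 1289 without siLUC replicate 2 and siLRH-1 #2 replicate 1, and 798 without all 3. With the mean of a gene's probes, 5 of the 41 p53 targets passed with siLRH-1 #2 in place of 3, and 0 of the regulators in place of 1. The 5 are 12.2% of the 41, near the 10.7% of all named genes that passed by this rule. By brightest probes 8.39% of all named genes passed.

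The call of FBXO22 between the siRNAs was lost on its brighter probe (adjusted p = 0.0627) when variances were not shared between probes, as were those of its dimmer probe with siLRH-1 #1 (adjusted p = 0.0636), of GDF15 with siLRH-1 #1 (adjusted p = 0.0719) and of GADD45A with siLRH-1 #2 (adjusted p = 0.0993). The call of GDF15 with siLRH-1 #1 was also lost with only the 8 arrays compared, array weights and arrays centred on their medians (adjusted p = 0.0628, 0.0594 and 0.0518). The cause was not tested. Of single-probe results under the alternatives, 1018 kept their side of the threshold, 34 lost a call and 10 gained one. Of the 1018, 21 that were called in neither setting changed sign, and 0 called results did. TIGAR and the brighter FBXO22 probe kept their calls with siLRH-1 #1 in each of the 24 settings (adjusted p = 0.00217 to 0.0382 and 0.000449 to 0.0464). Background correction, detection filters and a slide block were not run, as the signal columns could not be tied to samples.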

Other observations

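For 3 other listed p53 targets, picked after their values were seen, a dimmer probe passed while the brightest did not, and the difference between the probes was not tested. CYFIP2, a regulator of actin, had a dimmer probe (mean log2 6.91) that was higher with siLRH-1 #1 and siLRH-1 #2 (0.32 and 0.30, adjusted p = 0.000338 and 0.00211 from limma) and a brighter probe (8.56) that did not pass (0.16 and 0.19, adjusted p = 0.103 and 0.110). KITLG, the ligand of the KIT receptor, had a dim probe (7.02) that was lower with siLRH-1 #1 and siLRH-1 #2 (−0.46 and −0.37, adjusted p = 1.63e-05 and 0.00102) and brighter probes (11.12 and 10.55) that did not pass (−0.013 and 0.15 with siLRH-1 #1, −0.075 and 0.043 with siLRH-1 #2). IKBIP had a probe (6.96) that was higher with siLRH-1 #1 (0.24, adjusted p = 0.0123) and did not pass with siLRH-1 #2 (0.16, adjusted p = 0.184), and its brightest probe (7.50) did not pass (0.059 and −0.061, adjusted p = 0.649 and 0.735), nor did the third (6.87, 0.12 and 0.11, adjusted p = 0.378 and 0.524). The reverse held with siLRH-1 #1 for FBXW7 and ASCC3, whose brightest probes passed. Their dimmer probes did not, at 0.12 and 0.029 for FBXW7 (adjusted p = 0.477 and 0.820). For ASCC3 they were at 0.15, 0.063 and 0.13 (adjusted p = 0.178, 0.650 and 0.196).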
